A study of Mus musculus with 16 samples.

Results

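The cells annotated GN made up 181 of the 11492 cells that were sequenced from the left ventricles of 16 mice in a transverse aortic constriction (TAC) series, in which the narrowed aorta loads the heart with pressure. They were taken as every cell to which the authors' deposited cell annotation gave the type GN, a label that the sources used here do not spell out. The other annotated types were 5656 cardiomyocytes (CM), 1858 endothelial cells (EC), 1775 fibroblasts (FB), 1413 macrophages (MP) and 606 T cells (T), and 3 cells had no type. All 16 mice and all 12 plates held GN cells, and the annotation divided them into 68 cells of subcluster GN0, 67 of GN1 and 46 of GN2.

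All mice were male, and each belonged to 1 of 5 stages, written 0w (2 mice), 2w (2 mice), 5w (7 mice), 8w (3 mice) and 11w (2 mice). The labels name the TAC model for the whole series and do not say whether the 0w mice had been operated on. Ventricles were digested by either of 2 enzyme protocols, one meant to enrich myocytes and one meant to enrich the remaining cells, and no label says which protocol gave which cell. Reads were counted as unique molecular identifiers (UMIs), each standing for 1 captured RNA molecule.

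Neutrophils, the most numerous granulocytes of blood, are short-lived cells that leave the bone marrow filled with granules and enter injured tissue through the vessel wall. Their cytosol is rich in the calcium-binding pair S100a8 and S100a9, which together form calprotectin, and they depend on the receptor of granulocyte colony-stimulating factor, Csf3r. In the heart they are known as the first leukocytes to arrive after injury, ahead of monocytes and the macrophages that follow.

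By their genes the GN cells carried the profile of neutrophils. Over all GN cells together, S100a8 stood at 10638 CPM (counts scaled to 1000000 non-mitochondrial UMIs) and S100a9 at 8859 CPM, against at most 11.1 and 11.8 CPM in any other type. Csf3r stood at 260 CPM, against 6.57 CPM in macrophages, the next highest type. The 3 genes were detected in 76.8%, 75.1% and 40.3% of GN cells. Because the cells were typed from these same transcripts, levels between types and between subclusters are descriptions and carry no test.

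The upstream sequences of Retnlg, Asprv1, S100a8, S100a9 and Mmp8 are shown, since by fold over the next type these genes led all those for which RefSeq gave one. Each is the 250 bases before the gene's RefSeq start (build GRCm38.p6), 5′ to 3′ on the gene's strand, and capitals mark matches, on either strand, to TTGCNNAA, a motif of the C/EBP type, or to AGGAAGT, a motif of the PU.1 type. The C/EBP family and PU.1 are transcription factors known from granulocyte development. The windows lie at chr3:90668821-90669070 on the plus strand for S100a8, chr3:90695722-90695971 on the minus strand for S100a9, chr6:86627924-86628173 on the plus strand for Asprv1, chr16:48872358-48872607 on the plus strand for Retnlg and chr9:7558179-7558428 on the plus strand for Mmp8.
S100a8: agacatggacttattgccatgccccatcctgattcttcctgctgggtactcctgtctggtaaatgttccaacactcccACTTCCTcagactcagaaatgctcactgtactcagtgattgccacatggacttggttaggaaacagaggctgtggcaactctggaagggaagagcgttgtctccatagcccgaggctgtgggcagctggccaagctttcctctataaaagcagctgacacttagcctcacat
S100a9: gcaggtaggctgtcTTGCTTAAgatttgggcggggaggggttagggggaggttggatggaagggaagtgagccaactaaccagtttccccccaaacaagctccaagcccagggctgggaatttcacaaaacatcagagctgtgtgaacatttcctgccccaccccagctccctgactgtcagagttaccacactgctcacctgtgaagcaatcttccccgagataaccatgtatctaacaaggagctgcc
Asprv1: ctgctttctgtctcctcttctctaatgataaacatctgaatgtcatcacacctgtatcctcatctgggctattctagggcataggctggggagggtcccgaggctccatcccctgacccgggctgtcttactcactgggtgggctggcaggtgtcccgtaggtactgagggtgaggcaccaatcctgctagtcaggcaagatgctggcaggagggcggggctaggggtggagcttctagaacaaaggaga
Retnlg: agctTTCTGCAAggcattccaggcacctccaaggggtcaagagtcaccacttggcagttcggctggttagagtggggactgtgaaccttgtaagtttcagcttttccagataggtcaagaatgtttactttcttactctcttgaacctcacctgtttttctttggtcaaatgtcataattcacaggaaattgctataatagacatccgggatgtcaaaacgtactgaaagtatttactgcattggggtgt
Mmp8: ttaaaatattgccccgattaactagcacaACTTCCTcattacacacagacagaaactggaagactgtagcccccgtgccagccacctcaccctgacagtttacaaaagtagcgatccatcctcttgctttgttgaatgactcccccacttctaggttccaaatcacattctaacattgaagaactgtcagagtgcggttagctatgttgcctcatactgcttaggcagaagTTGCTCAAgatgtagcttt

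S100a8 held a PU.1-type match whose first base lies 172 bases before the start, S100a9 and Retnlg a C/EBP-type match at 236 and 246 bases, and Mmp8 both, the C/EBP-type match at 19 bases and the PU.1-type match at 221 bases. Asprv1, an aspartic protease, held neither. This choice of genes to show was made with the matches known. Of the 20 genes with the largest fold in GN cells over the next highest type, 16 had an upstream sequence. Of these 16, 3 held the C/EBP-type motif (18.8%) and 4 the PU.1-type motif (25%), beside 9.55% and 7.80% of all 27025 promoter windows of that length. A match describes letters only.

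Before the results, 1 plate has to be set apart. Plate F carried all cells of 5w replicates 2 and 3 and no annotated cardiomyocyte, and there 88.9% of endothelial cells, 95.8% of fibroblasts, 90.5% of macrophages and 86.7% of T cells held a UMI of S100a8 or S100a9, close to the 97.3% of its GN cells. The level nonetheless separated the types on that plate, with S100a8 at 28725 CPM in its 37 GN cells and at 98.6 CPM in its 198 other cells. On the remaining 11 plates the gene stood at 7502 CPM in GN cells and at 4.80 CPM in the rest, of which 4.83% held a UMI. No cell name occurred in more than 1 plate or mouse. A mouse contributed 113 to 1269 cells in all, and plate and stage cannot be told apart, since plate E alone held mice of more than 1 stage, 5w replicate 1 and 8w replicate 1.

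**Figure D1:**
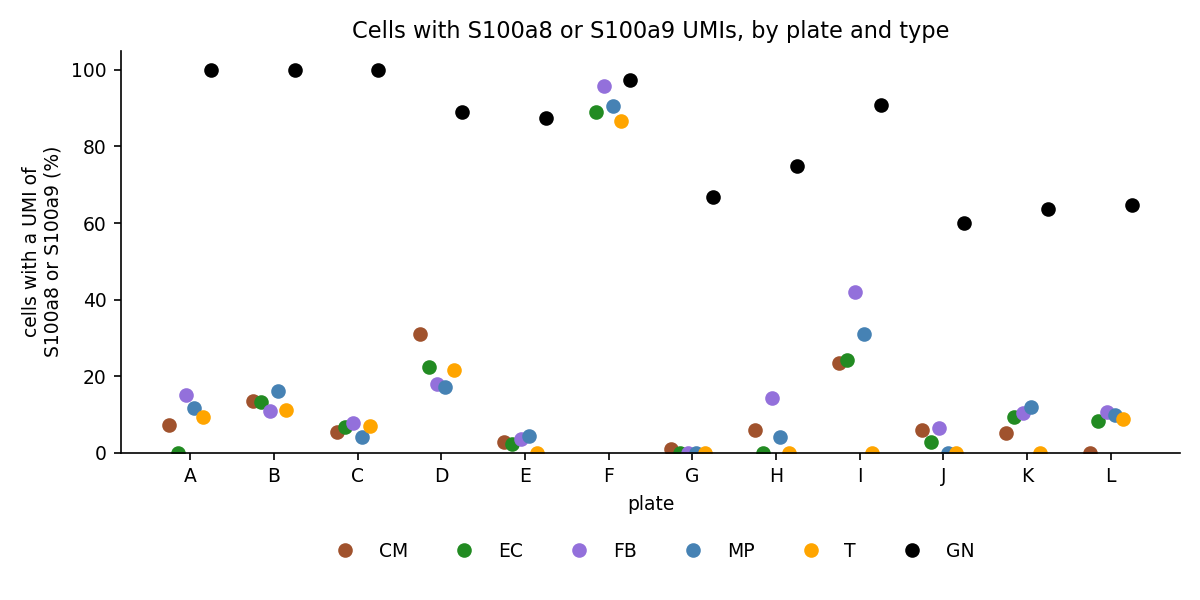
Percentage of cells with at least 1 UMI of S100a8 or S100a9 (vertical axis) on each of the 12 plates (horizontal axis), with 1 point for each annotated type present on the plate. GN cells are above every other type on every plate, and on plate F the other types reach 86.7% to 95.8%.

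A UMI of S100a8 or S100a9 was found in 146 of the 181 GN cells (80.7%, 95% exact binomial interval 74.1% to 86.1%). That interval treats the pooled cells as independent, so it covers counting error only and not the spread between mice or plates. The pool includes the GN cells of plate F, where most cells of the other types held such a UMI too. Among the other types, where free RNA from broken cells can give such UMIs, the shares were 5.76% of cardiomyocytes, 12.5% of endothelial cells, 15.4% of fibroblasts, 13.5% of macrophages and 15.5% of T cells. GN cells were not read more deeply than those types: their median was 11756 non-mitochondrial UMIs, against 12469 in cardiomyocytes, 17110 in endothelial cells, 18335 in fibroblasts, 22286 in macrophages and 14766 in T cells. With every cell thinned to 1000 UMIs, S100a8 was seen in 65.7% of GN cells and in 0.301% to 2.15% of cells of the other types, after 8 cardiomyocytes, 2 endothelial cells, 23 fibroblasts, 3 macrophages and 0 GN or T cells of lower depth had been left out. Of the GN cells, 134 lay above the 99th percentile that the other types reached on the same plate. These were 43 of 68 GN0 cells, 52 of 67 GN1 cells and 39 of 46 GN2 cells. On plates A to D, of 0w and 2w, 5 of 5, 9 of 9, 9 of 9 and 8 of 9 GN cells held a UMI of either gene. On plates I and J, of 8w, 20 of 22 and 15 of 25 did, and on plates K and L, of 11w, 21 of 33 and 11 of 17.

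The pair was read together. Both genes were present in 129 GN cells, S100a8 alone in 10, S100a9 alone in 7 and neither in 35, and their levels across the 181 cells had a Spearman correlation of 0.83, a description over cells that share libraries and depth. At least 3 of 10 neutrophil markers had a UMI in 145 GN cells (80.1%), and in 1.33% to 7.29% of cells of the other types. By subcluster, that held for 46 of 68 GN0 cells, 55 of 67 GN1 cells and 44 of 46 GN2 cells.

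Across mice, the level of S100a8 in GN cells varied widely. It was 11182 and 12396 CPM in the 0w mice, 17621 and 2904 CPM in the 2w mice, and 6259, 1721 and 2940 CPM in the 8w mice. In the 11w mice it was 5590.5 and 4494 CPM, and in the 7 mice at 5w it ran from 1421 CPM in replicate 5, with 2 GN cells, through a median of 11516 CPM to 30448 CPM in replicate 3. Every mouse thus had S100a8 in its GN cells above the 98.6 CPM of the other cells of plate F. Csf3r was listed at 0 in the GN cells of 5w replicates 1 and 7, which had 3 GN cells and 1, and reached 715 CPM in 5w replicate 2.

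Of 36916 genes that are not mitochondrially encoded, 12048 reached 10 CPM in some type, and 635 of them (5.27%) stood at least 2 times higher in GN cells than in any other type. The median log2 ratio of GN cells to the highest other type was -1.64 over those 12048 genes. Against that background, 8 of the 9 expressed genes of 10 neutrophil markers stood at least 2 times higher, with a median log2 ratio of 7.03. These lists were drawn up with the typing known, so the count describes the label rather than supporting it.

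The genes with the largest fold in GN cells included Retnlg, Mmp8 and Hp. Retnlg, a resistin-like secreted protein, stood at 4137 CPM in GN cells, 1002 times its level in macrophages, although 1 cell gave 56.5% of its UMIs. Mmp8, the neutrophil collagenase, stood at 405 CPM against 0.696 CPM in macrophages. Hp, the haemoglobin-binding haptoglobin, stood at 766 CPM against 12.3 CPM in fibroblasts. Asprv1, Trem3, Stfa2, Stfa2l1, Il1f9, Mrgpra2b, H2-Q10, Niacr1, Mefv, Trim30b and Irg1 completed the leading 20 genes with Trem1, Fpr1, Cxcr2 and Il1r2, described below. Stfa2 with Stfa2l1, and Mrgpra2b with its family, have near-identical copies, so their reads may be split among the copies. The median log2 ratio of the 20 genes to the next type was 6.90 over all plates and 6.29 without plate F.

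**Figure D2:**
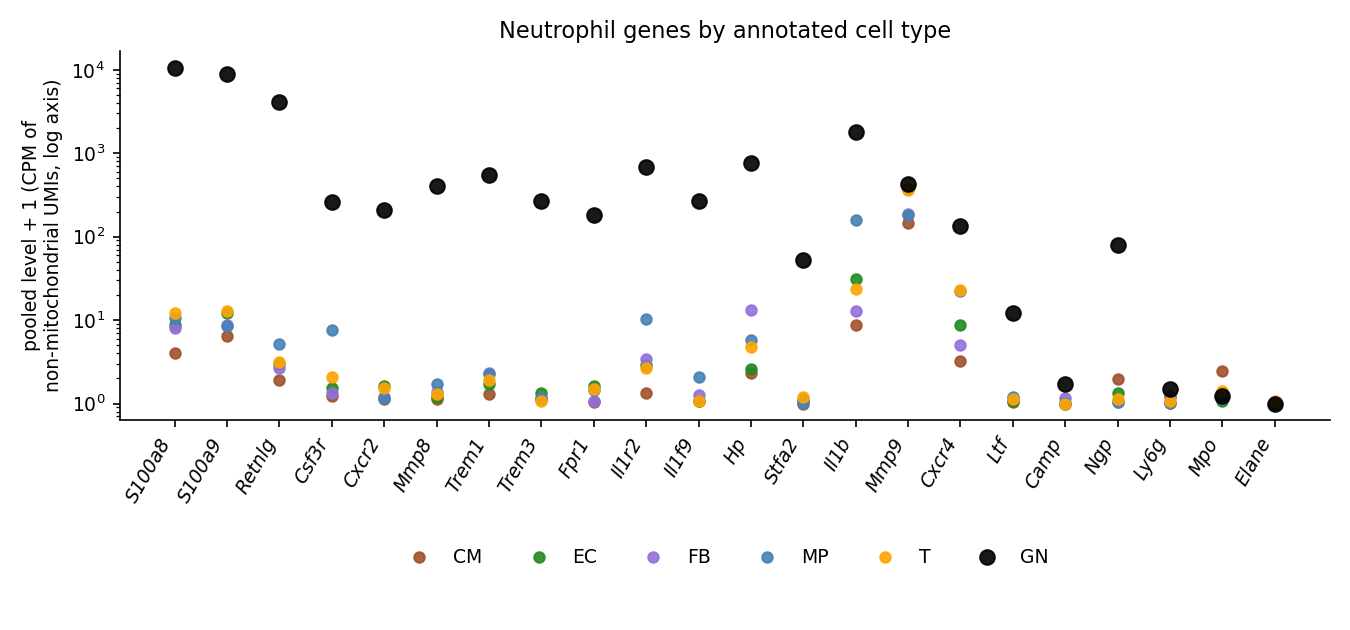
Pooled level plus 1 of 22 genes linked to neutrophils (vertical axis, CPM of non-mitochondrial UMIs, log axis) in each of the 6 annotated types (points). GN cells are highest for S100a8 through Stfa2 by at least 39.5-fold, are close to another type for Mmp9, and are near the bottom for Camp, Ly6g, Mpo and Elane.

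The granule lists, ordered from early to late formation in the marrow, gave unlike counts. Of 6 genes of primary granules, packed in the earliest precursors, none reached 10 CPM in any type: Elane, Ctsg and Ms4a3 had 0 UMIs in GN cells and Mpo had 1. Of 9 genes of secondary granules, 6 were expressed and 5 stood at least 2 times higher in GN cells, with a median log2 ratio of 4.52. These included Lcn2, the siderophore-binding lipocalin, at 229 CPM against 16.4 CPM in endothelial cells, and Chi3l3, a chitinase-like lectin, at 291 CPM against 6.34 CPM. Of the other secondary granule genes, Ngp had 323 UMIs with 85.8% of them in 1 cell, Ltf had 46 UMIs from 3 mice, and Camp had 3 UMIs. Of 8 tertiary granule genes 7 were expressed, 5 of these were highest in GN cells and 2 were at least 2 times higher. Mmp9, the gelatinase of those granules, stood at 424 CPM in GN cells and at 370 CPM in endothelial cells, so it hardly separated the types. Ly6g, the surface antigen by which mouse neutrophils are usually sorted, had 2 UMIs in 1 GN cell.

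Receptors that guide neutrophils were among the genes with the largest ratios. Of 9 expressed chemotactic receptors, 7 were highest in GN cells and 6 at least 2 times higher, with a median log2 ratio of 2.56. Cxcr2, the receptor of neutrophil-attracting chemokines, stood at 209 CPM against 0.610 CPM, and Fpr1, the receptor of formylated bacterial peptides, at 182 CPM, 282 times the next type. Cxcr4, which holds neutrophils in the marrow, stood at 134 CPM against 22.0 CPM in T cells, and Ccr1, a receptor of inflammatory chemokines, at 435 CPM against 33.7 CPM.

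Of 8 expressed genes of adhesion and migration, 6 were highest in GN cells but only 2 by at least 2 times. Selplg, the selectin ligand, stood at 334 CPM against 122 CPM, and Cd44, the hyaluronan receptor, at 705 CPM against 102 CPM.

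Sensors of microbes and damage were high as a group: 9 of 12 expressed genes were highest in GN cells, 8 by at least 2 times, with a median log2 ratio of 2.30. Trem1, an amplifier of myeloid inflammation, stood at 550 CPM, 425 times the next type. Clec4e and Clec4d, lectins that bind fungal and mycobacterial glycolipids, stood at 1702 and 669 CPM against 40.9 and 61.6 CPM. Nlrp3, a scaffold of the inflammasome, stood at 291 CPM against 58.6 CPM.

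Cytokine genes did not follow that pattern. Of 14 expressed cytokines and chemokines 4 were highest in GN cells and 3 at least 2 times higher, and their median log2 ratio was -0.95. Il1b, which the inflammasome's protease activates, stood at 1817 CPM against 156 CPM in macrophages and was seen in 64.1% of GN cells. Its natural antagonist Il1rn stood at 496 CPM against 42.2 CPM, and Il1r2, the decoy receptor of the same cytokine, at 681 CPM against 9.19 CPM. Macrophages were above GN cells for Ccl4, with 6131 against 869 CPM, Ccl3, with 756 against 322 CPM, and Tnf, with 181 against 99.2 CPM, while Cxcl2 stood at 1302 CPM in GN cells and 1391 CPM in macrophages.

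Of 8 expressed oxidase and cytosolic defence genes, 5 were highest in GN cells and 2 at least 2 times higher, and Cybb, the membrane subunit of the phagocyte oxidase, stood at 310 CPM against 514 CPM in macrophages. Rac2, its regulator, stood at 971 CPM against 311 CPM in T cells, with 64.0% of its UMIs in 1 cell. Lyz2, the lysozyme of myeloid cells, stood at 2226 CPM against 6435 CPM in macrophages. Of 16 interferon response genes 7 were highest in GN cells and 5 at least 2 times higher, with a median log2 ratio of -0.36. None of 14 cell cycle genes was highest in GN cells, and their median log2 ratio was -5.13.

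Macrophage and lymphocyte markers were low in the pool. The summed level of 12 macrophage markers was 911 CPM in GN cells against 11927 CPM in macrophages, of 10 T cell markers 61.2 CPM against 2519 CPM in T cells, and of 10 B cell markers 36.3 CPM against 1991 CPM in T cells. Among the other granulocytes, the 9 eosinophil markers summed to 16.2 CPM with Epx, Prg3 and Il5ra at 0, and the 8 basophil markers to 7.02 CPM with Mcpt8, Prss34, Ms4a2, Fcer1a and Cpa3 at 0. The 8 mast cell markers summed to 95.3 CPM with Mcpt4, Cma1, Cpa3 and Ms4a2 at 0. Monocyte markers were not low: the 9 summed to 1118 CPM, beside 1787 CPM in macrophages and 192 to 796 CPM in the other types, and of 8 expressed 3 were highest in GN cells and 2 at least 2 times higher.

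Transcripts of 2 cell types that do not belong in neutrophils were high. The 6 erythroid markers, mostly globin genes whose near-identical copies share reads, summed to 147297 CPM, and all 6 were highest in GN cells, beside 13954 to 38033 CPM in the other types. For Hba-a1, at 67628 CPM in GN cells, 1 cell gave 45.0% of the UMIs. The 8 cardiomyocyte markers summed to 20668 CPM, beside 63123 CPM in cardiomyocytes and 4068 to 15664 CPM in the other types. Per cell, 27 GN cells (14.9%) had at least 20% of their UMIs in globin genes, beside 1.98% to 5.61% of cells of the other types. On plate A the median summed cardiomyocyte marker level was 56489 CPM in GN cells, 39270 CPM in macrophages and 37430 CPM in T cells, and on plate I it was 1704, 629 and 370 CPM. Globin differed by mouse within plate I. In 8w replicate 2 its median share of UMIs was 0.40% in GN cells, 0.35% in macrophages and 0.61% in T cells. In 8w replicate 3 it was 30.2% in GN cells, below 58.3% in cardiomyocytes and 41.6% in T cells. It was 19.3% in fibroblasts, 16.8% in endothelial cells and 15.5% in macrophages of that mouse. The part of these transcripts in the differences described further on was not tested.

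Mitochondrially encoded genes took a median of 48.1% of all UMIs in GN cells, beside 31.8% in macrophages and 45.7% in T cells. A GN cell had a median of 1152 detected genes. Over the 13 mice with at least 3 cells of both types, GN cells had fewer genes than macrophages, with a median over mice of 1212 against 1898 genes and a mean log2 ratio of -0.44 ± 0.50 (SD, n = 13 mice). They were lower in 9 of 13 mice, and an exact sign-flip permutation test over mice, two-sided and adjusted over 4 comparisons, gave p = 0.0352. That call was lost without plate F, at an adjusted p of 0.141, and at 0.0703 without 0w replicate 1, any of 5w replicates 2, 3 and 6, 8w replicates 1 or 2, or 11w replicate 1. UMIs per cell gave a log2 ratio to macrophages of -0.36 ± 0.89 (SD, n = 13 mice; adjusted exact p = 0.335) and to T cells of 0.20 ± 1.04 (SD, n = 12 mice; adjusted exact p = 0.672). Genes per cell gave a log2 ratio to T cells of 0.03 ± 0.66 (SD, n = 12 mice; adjusted exact p = 0.938).

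GN cells were a small and uneven share of the annotated cells that were not cardiomyocytes. At 0w they were 6 of 718 cells (0.836%) and 8 of 826 (0.969%), and at 2w 8 cells (1.41%) and 10 cells (1.78%). At 8w they were 5 of 465 (1.08%), 13 of 181 (7.18%) and 34 of 171 (19.9%), and at 11w 10 of 674 (1.48%) and 40 of 681 (5.87%). In the 7 mice at 5w the share ran from 0.485% (3 of 619) through a median of 5.41% (2 of 37) to 24.8% (28 of 113). All 4 mice of 0w and 2w were below 2%, and so were 5w replicate 1, 8w replicate 1 and 11w replicate 1, so the groups overlapped. The 95% exact binomial interval of the highest share was 17.1% to 33.8%, and that of 8w replicate 3 was 14.2% to 26.7%. Such intervals cover counting error only. The shares count every cell labelled GN, also those without a UMI of S100a8 or S100a9.

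**Figure D3:**
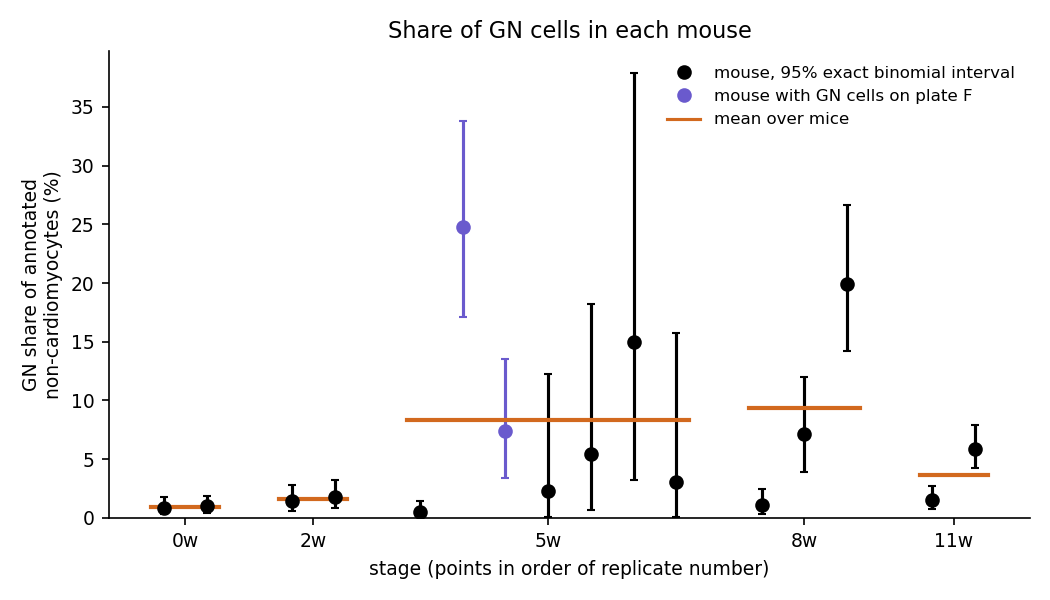
GN share of annotated non-cardiomyocytes (vertical axis, percent) in each of the 16 mice, grouped by stage and ordered by replicate number, with 95% exact binomial intervals and the mean of each stage as a line. The 4 mice of 0w and 2w lie between 0.836% and 1.78%, while 5w runs from 0.485% to 24.8% and 8w from 1.08% to 19.9%.

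The mean share of the 0w mice was 0.902% ± 0.0940 (SD, n = 2), and that of the 2w mice 1.59% ± 0.262 (SD, n = 2). It was 8.34% ± 8.66 for the 7 mice of 5w, 9.38% ± 9.59 for the 3 mice of 8w and 3.68% ± 3.10 for the 2 mice of 11w. A permutation test across the 5 stages gave p = 0.563. The 5 mice of 8w and 11w exceeded the 4 mice of 0w and 2w by 5.85 points (7.10% ± 7.63 against 1.25% ± 0.431, SD), with an exact permutation p of 0.103 out of 126 splits, of which the smallest possible p is 0.00794. The 7 mice at 5w exceeded those 4 by 7.10 points, with an exact permutation p of 0.124. Adjusted over 4 comparisons both permutation tests gave p = 0.248, so neither difference was called, which does not show that there was none. Among annotated immune cells alone (macrophages, T and GN cells), the GN share averaged 2.60% ± 0.610 in the 0w mice and 3.55% ± 0.242 in the 2w mice. It averaged 12.8% ± 12.05 in the 7 mice of 5w, 24.2% ± 23.1 in the 8w mice and 14.5% ± 12.6 in the 11w mice (SD). Over the 13 mice with at least 20 immune cells a permutation test across stages gave p = 0.534. Within plate E the shares of non-cardiomyocytes were 0.485% in the 5w mouse and 1.08% in the 8w mouse. A share also moves with how many cells of the other types each digestion freed.

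The 3 subclusters differed first in how much of the neutrophil profile they held. The 10 neutrophil markers summed to 7217 CPM in GN0, 16843 CPM in GN1 and 73809 CPM in GN2, and the median cell of each held 3467, 12255 and 57647 CPM. In GN2, 1 cell of 2w replicate 1 gave 45.0% of the sum, which was 52631 CPM without that cell. Of the 9 expressed markers 8 were highest in GN2, where 31.6% of 7012 genes of at least 10 CPM in GN cells were highest. GN0 was highest for 52.5% of those genes and GN1 for 15.9%. A UMI of S100a8 or S100a9 was present in 48 of 68 GN0 cells (70.6%), 54 of 67 GN1 cells (80.6%) and 44 of 46 GN2 cells (95.7%), at median depths of 14722, 11124 and 9235 non-mitochondrial UMIs.

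GN2 held the most of nearly every group that marked GN cells. S100a8 stood at 29297 CPM in GN2, 7187 CPM in GN1 and 3012 CPM in GN0, and Csf3r at 760, 155 and 64.7 CPM. In GN2, 1 cell of 2w replicate 1 gave 40.4% and 34.8% of their UMIs, and without that cell they stood at 22664 and 643 CPM. Hp stood at 2229 CPM in GN2, or 1010 CPM without 5w replicate 2, against 319 CPM in GN1 and 314 CPM in GN0, or 152 CPM in GN0 without 0w replicate 1. The summed sensors of microbes and damage were 10405 CPM in GN2, 4359 CPM in GN1 and 2497 CPM in GN0, with 11 of 12 genes highest in GN2, and 11 of 12 actin cytoskeleton genes were highest there too. Of its cells 76.1% came from plate F, where S100a8 was read at the highest level in GN cells, so this subcluster and that plate largely cannot be told apart. The 11 GN2 cells of other plates, from 6 mice, had a median of 25387 CPM of summed neutrophil markers, below the 65165 CPM of the 35 on plate F and above the 11378 CPM of GN1 and 3467 CPM of GN0 on the other plates.

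GN1 and GN0 held the highest pooled levels of transcripts of 2 other cell types. The erythroid markers summed to 343352 CPM in GN1 against 33104 CPM in GN0 and 62800 CPM in GN2, and all 6 were highest in GN1. In 21 of 67 GN1 cells (31.3%), 3 of 68 GN0 cells and 3 of 46 GN2 cells, at least 20% of UMIs were globin, while the median summed erythroid level per cell was 17314 CPM in GN1 and 22639 CPM in GN2. The high pool of GN1 therefore lay in a minority of its cells. Most of those globin-rich GN1 cells came from 8w replicate 3, the mouse with high globin in every type on plate I. On the plates with 7 or more GN1 cells, their median globin share was 52.4% (plate I), 0.13% (J), 2.06% (K) and 0.75% (L). The cardiomyocyte markers summed to 40060 CPM in GN0 against 8370 CPM in GN1 and 4179 CPM in GN2, and all 8 were highest in GN0. A single cell of 2w replicate 2 gave 42.5% of that sum in GN0, which was 23891 CPM without this mouse, and 5, 9 and 15 of the 68 GN0 cells lay on plates A, C and J. Without 2w replicate 1 the sum in GN2 was 2307 CPM. The median cardiomyocyte marker level per cell was higher in GN1 than in GN0 on plates D, E, I, J, K and L. It was higher in GN0 on plates B, G and H, and on plates D, E, G and H a side had only 1 or 2 cells. On plate J it was 33194 CPM in GN0 and 37243 CPM in GN1. On plate C, without GN1 cells, it was 85549 CPM in GN0, 76087 CPM in macrophages and 74628 CPM in T cells. The part of the plate in the GN0 sum was not tested. In GN1, 1 cell of 2w replicate 1 gave 46.6% of the erythroid sum, which was 233421 CPM without that cell. The erythroid sum was 11434 CPM in GN0 without 8w replicate 3 and 36339 CPM in GN2 without 5w replicate 2, and GN1 stayed highest. The summed macrophage markers were also highest in GN0, with 1402 CPM against 396 and 792 CPM.

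**Figure D4:**
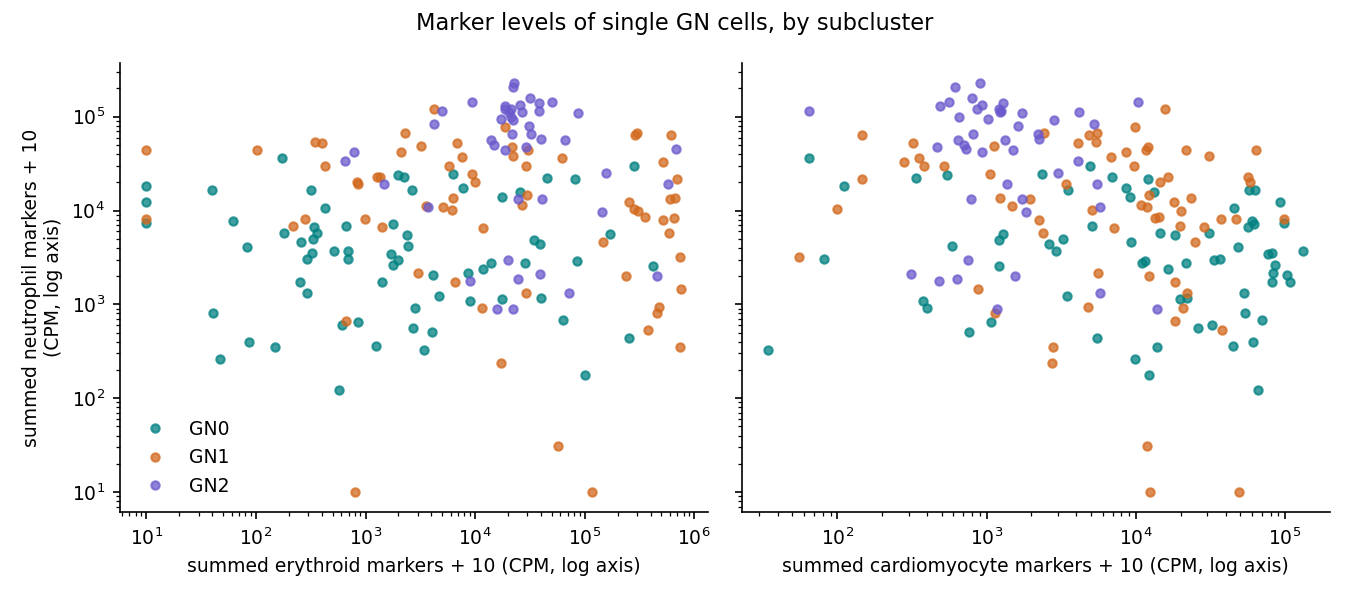
Summed neutrophil markers (vertical axis, CPM plus 10, log axis) of each of the 181 GN cells against its summed erythroid markers (left) and cardiomyocyte markers (right, both CPM plus 10, log axes), coloured by subcluster. GN2 has the highest median, 57647 CPM, and GN0 the lowest, 3467 CPM, while the ranges of the subclusters overlap.

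Some genes of GN cells did not follow the order of S100a8. Il1b was highest in GN1, at 2524 CPM, with 1666 CPM in GN0 and 1047 CPM in GN2, and the order held with each cell thinned to 1000 UMIs (2239, 1471 and 1217 CPM). In the same order of subclusters, 1 cell gave 42.2%, 39.5% and 29.6% of its UMIs. Without that cell the levels were 1859, 1094 and 957 CPM, so GN0 and GN2 lay close together. Ccl4 was lowest in GN2, at 369 CPM, with 1069 CPM in GN0 and 967 CPM in GN1, although 1 cell gave 38.9% to 50.7% of its UMIs in each subcluster and GN2 stood at 201 CPM without 11w replicate 2. Cxcr2 stood at 256 CPM in GN0, 177 CPM in GN1 and 171 CPM in GN2. Without the top cell of each subcluster it stood at 164, 76.9 and 134 CPM. The 14 cytokines and chemokines together summed to 5898, 7157 and 6816 CPM in GN0, GN1 and GN2, a narrow range beside that of the neutrophil markers.

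The genes with the largest fold in each subcluster over the other GN cells were led by few cells. They included, for GN0, Pfdn4, Palmd, Adhfe1, Rrn3, Dnajb4, Trib2, Cacna1c and Clasp1, for GN1 Smarcb1, Chst11, Fam213a, P2ry13, Ube2l6, Ep300 and Secisbp2, and for GN2 Tspan14, Elf4, Kif21b, Fam49a, Ift46, Dhrs9, Fam217b and Sf3a1. Each was seen in 5 to 20 cells of its subcluster, and 1 cell gave 32.1% to 98.0% of its UMIs. Among those of GN0, Cacna1c is the calcium channel of cardiomyocytes.

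In the 11 mice with at least 5 GN cells, subcluster shares were unevenly spread over the stages. GN0 averaged 70.8%, 55.0%, 0%, 48.6% and 32.5% of GN cells in the order of the stages (permutation test over mice, adjusted over 3 subclusters, p = 0.00912). GN1 averaged 22.9%, 32.5%, 3.57%, 36.2% and 58.8% in the same order (permutation test, adjusted p = 0.0452), and GN2 6.25%, 12.5%, 96.4%, 15.3% and 8.75% (permutation test, adjusted p = 0.0724). Both 5w mice with that many GN cells were on plate F, where 35 of 37 GN cells were GN2. Without plate F the adjusted permutation p was 0.132 for GN0 and 0.240 for GN1, so the calls rested on that plate. With at least 3 GN cells per mouse, which adds 5w replicates 1 and 6, it was 0.764 and 0.115. For GN1 the call was also lost, at 0.0525 to 0.107, without any 1 of 2w replicates 1 and 2, 5w replicates 2 and 3, 8w replicate 2 and 11w replicates 1 and 2.

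**Figure D5:**
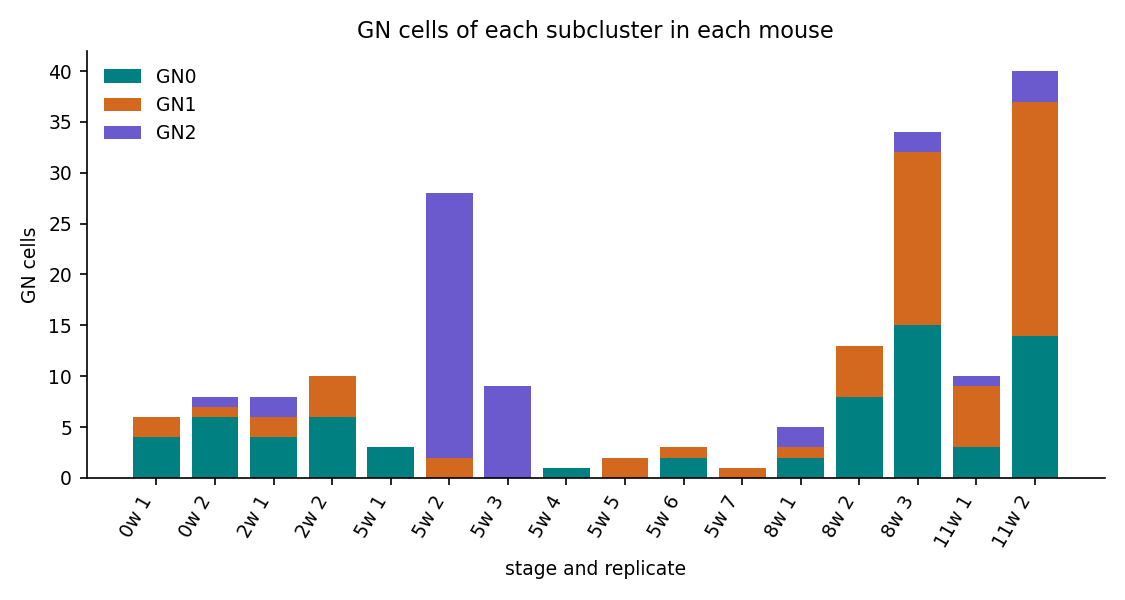
Number of GN cells (vertical axis) of each subcluster in each of the 16 mice (bars, by stage and replicate). In 5w replicates 2 and 3, 35 of 37 GN cells are GN2, while GN0 and GN1 make up most GN cells of 8w replicate 3 and 11w replicate 2.

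Expression within GN cells was compared between stages on the summed counts of each of the same 11 mice, with edgeR's quasi-likelihood test and Benjamini-Hochberg adjustment over 4906 genes. The levels that follow are edgeR CPM after TMM scaling, over the tested genes, which include mitochondrially encoded ones. The groups were the 4 mice of 0w and 2w, the 2 mice of 5w on plate F, and the 5 mice of 8w and 11w. Few genes passed an adjusted p of 0.05, and 8 of the 20 genes named from these comparisons had at least 50% of their UMIs in 1 cell. In counts simulated with the spread of these data, the fit called only 4 of 100 genes changed by a log2 of 4.

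Between 8w and 11w and the earlier 0w and 2w, 0 genes rose (0%) and 5 fell (0.102%), while 584 had an unadjusted p under 0.05 and DESeq2 called 52, of which 32 were higher. Dgat1, which makes triglycerides, stood at 0, 883, 671 and 67.1 CPM in the 4 early mice and at 0, 42.2, 0, 0 and 0.753 CPM in the 5 late mice. It fell by 6.99 on the log2 scale (SE 1.44, edgeR adjusted p = 0.00359), although 1 early mouse also had none. Camk2g, a calcium-dependent kinase, had 341 UMIs in 3 of the 4 early mice and 0 in all late mice, at least 172-fold lower when set against 3 counts over the late group (edgeR adjusted p = 0.00897). Sdhaf2, an assembly factor of succinate dehydrogenase, fell by 7.36 (SE 1.74, edgeR adjusted p = 0.0239) and had 66.6% of its UMIs in 1 cell. Rac2 fell by 4.22 (SE 0.94, edgeR adjusted p = 0.00897) from 68.2, 5904, 725 and 10.7 CPM to between 25.7 and 151 CPM. In Rac2 the groups overlapped, and 95.5% of the UMIs of the highest mouse, 0w replicate 2, came from 1 cell. With at least 10 GN cells per mouse the change of Rac2 turned to 2.48, and it was -1.44 without 0w replicate 2 and -1.67 without 2w replicate 1. Without 1 mouse the 5 calls became 3 without 0w replicate 1 or 2w replicate 1, 2 without 0w replicate 2 or 5w replicate 2 or 3, 0 without 11w replicate 1 or 2, and 8 without 8w replicate 1.

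The neutrophil markers gave no call in that comparison. Their median log2 change was -1.35, with 8 of 9 below 0, beside a median of 0.11 over all genes. Monocyte markers were positive in 7 of 7 (median 1.95) and erythroid markers in 5 of 5 (1.48), cardiomyocyte markers were negative in 8 of 8 (-1.83), and 0 of these were called. S100a8 stood at 4358, 6095, 17140 and 1371 CPM in the early mice and at 649 to 2135 CPM, with a median of 2080 CPM, in the late mice. The 17140 CPM was in 2w replicate 1, which held the 1 cell that gave 40.4% of the S100a8 UMIs of GN2. The log2 change of S100a8 was -1.98 (SE 0.61, edgeR adjusted p = 0.187), and that of Retnlg was -2.33 (edgeR adjusted p = 0.187). Il1b had a log2 change of 1.78 (SE 0.86, edgeR adjusted p = 0.384), from 2.97, 92.2, 2653 and 235 CPM in the early mice to between 361 and 1593 CPM in the late mice.

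Between 8w and 11w and the 5w mice of plate F, 2 genes were higher (0.0408%) and 8 lower (0.163%) at the later stages. S100a8 stood at 17890 and 10760 CPM at 5w, above all 5 late mice, and was lower at the later stages by a log2 change of -3.02 (SE 0.70, edgeR adjusted p = 0.0297). S100a9 stood at 15580 and 6640 CPM at 5w and at 426 to 2347 CPM later, with a log2 change of -2.87 (SE 0.72, edgeR adjusted p = 0.0407). These 2 were the neutrophil markers called, of 9 tested, and all 9 had a negative change with a median of -2.20, beside 0.03 over all genes. GN2 made up 35 of the 37 cells at 5w and 8 of the 102 later cells, so stage and subcluster cannot be told apart here. Csf3r, with a log2 change of -2.05 (edgeR adjusted p = 0.608), was not called.

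Cardiomyocyte markers were positive in 8 of 8 (median 4.07), fibroblast markers in 6 of 7 (2.20) and endothelial markers in 6 of 6 (1.72), while 4 of 4 T cell markers were negative (-6.12), and 0 of these were called. Both higher genes belong to cardiomyocytes. Ankrd1, a stress-responsive protein of the sarcomere, stood at 21.5 and 8.46 CPM at 5w and at 268 to 2429 CPM later, a log2 change of 6.14 (SE 1.42, edgeR adjusted p = 0.0297). Xirp2, an actin-binding protein of the intercalated disc, had a log2 change of 6.92 (SE 1.70, edgeR adjusted p = 0.0399). The other lower genes included Klhdc10 and Atg16l2, with 0 UMIs in all late mice and at least 247-fold and 220-fold lower there, Prkar1b, a regulatory subunit of protein kinase A, with a log2 change of -8.22, Dgat1, and Msantd3 and Prkcb, which had 1 and 3 UMIs in the late mice. Without 5w replicate 2 or 3, 8w replicate 3, or 11w replicate 1 or 2, 0 genes were called. Without 8w replicate 2 the count was 3, without 0w replicate 1 it was 15, without 8w replicate 1 it was 27 and without 0w replicate 2 it was 28.

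Between the 5w mice of plate F and the mice of 0w and 2w, 21 genes were higher (0.428%) and 21 lower (0.428%) at 5w. The lower genes held 7 of 8 cardiomyocyte markers, whose median log2 change was -5.34, beside 0.19 over all genes. Myh6, the alpha myosin heavy chain of cardiomyocytes, stood at 11.9, 1950, 3812 and 8486 CPM at 0w and 2w and at 31.0 and 25.4 CPM at 5w, so the lowest early mouse was below both, and its log2 change was -6.43 (SE 1.34, edgeR adjusted p = 0.00737). Tcap and Fabp3, a cap protein of titin and the fatty acid carrier of heart muscle, had log2 changes of -7.32 and -7.01. Atp5g1, a subunit of ATP synthase, had one of -6.48, and Acadl, an enzyme of fatty acid oxidation, had 0 UMIs at 5w and was at least 153-fold lower there. Plate F held no annotated cardiomyocyte, and the summed cardiomyocyte markers of these GN cells, per non-mitochondrial UMI, were 575 and 1125 CPM at 5w and 1438, 29641, 18794 and 81997 CPM in the 4 early mice.

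Among the higher genes, Msantd3, Smim3 and Nr4a2 had 0 UMIs in the 4 early mice and were at least 145-fold, 237-fold and 48.8-fold higher at 5w, while Ipcef1 was found in 1 of the 2 mice at 5w. For Msantd3 and Ipcef1, 1 cell gave 86.5% and 80.4% of the UMIs. Nfatc1, a calcium-regulated transcription factor, stood at 56.1 and 592 CPM at 5w and had 2 UMIs in the early mice. Clec7a, the beta-glucan receptor dectin-1, stood at 684 and 292 CPM at 5w and at 2.97 to 27.6 CPM earlier, a log2 change of 5.97 (SE 1.48, edgeR adjusted p = 0.0170). Chi3l3 had a log2 change of 6.24 (edgeR adjusted p = 0.0170), with 20.3 and 820 CPM at 5w against 17.8, 0, 0 and 6.39 CPM. Of the 9 neutrophil markers 0 were called, and their median log2 change was 1.01. Monocyte markers were positive in 7 of 7 (median 3.85), with Plac8 called at 7.03 (SE 1.82, edgeR adjusted p = 0.0228), T cell markers in 4 of 4 (4.61) and erythroid markers in 5 of 5 (2.68), and the part of such cells in the changes of Clec7a and Chi3l3 was not tested. No gene was called without 0w replicate 2, 2w replicate 2, 5w replicate 2 or 3, or 11w replicate 1 or 2, and 21, 16, 94 and 26 were called without 0w replicate 1, 2w replicate 1, 8w replicate 1 and 8w replicate 3.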

How the data were processed

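The deposited table held raw UMI counts per gene and cell, and a deposited annotation gave each cell's type, subcluster, mouse and plate, per the file headers. Per the submitters' processing notes the authors used STAR 2.5.2b and featureCounts of Subread 1.4.6-p1, with mm10 and GRCh37 named as builds; no source used here states their roles, the strand setting of the counting or doublet removal, and no doublet caller was run. The cells as deposited were kept without a further filter, and the lowest annotated number of detected genes was 501.

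Except for TMM-scaled CPM, levels are UMIs summed over a type, subcluster or mouse scaled to 1000000 UMIs of 36916 genes. For them 34 mitochondrially encoded genes were left out, while TMM-scaled CPM cover the tested genes with mitochondrially encoded ones kept. Stage comparisons used counts summed per mouse over GN cells (at least 5 per mouse, 11 mice, 147649 to 2424570 UMIs in tested genes) in 1 edgeR 4.0.16 fit with TMM factors of 0.546 to 1.71 and edgeR's low-count filter. The p-values take the mouse, not the cell, as the replicate. Shares were tested over mice by exact or 100000-draw permutations, two-sided. Promoters were taken from RefSeq, build GRCm38.p6.

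Genes named were the 20 with the largest fold over the next type (at least 50 CPM, a UMI in 10% of GN cells, 5 mice), 8 for each subcluster, up to 5 per direction and stage comparison without predicted, mitochondrial or ribosomal protein genes, and members of role and marker lists. Some genes that the rule names are not reported here. The members and lists were chosen with earlier results of these data known. Alternatives changed the scaling, filters, tool, minimum of cells, replicate block, plate and mouse. The fit was checked on simulated counts for 8w and 11w against 0w and 2w, with 200 of 4906 genes changed. At the dispersion (edgeR's measure of spread between mice) estimated from these data, 1.65, it called 4 of 100 genes changed by a log2 of 4. Of 100 genes changed by a log2 of 6 it called 31, with 0 false calls. At a dispersion of 0.1 it called 96 and 100, with 14 false calls. Few calls therefore do not show that few genes changed.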

Additional observations from a re-analysis of the deposited data

Results flagged for a closer look

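In 15 of 61 groups of 4 or 5 mice, 1 mouse stood far from the others by Dixon's criterion at the 95% level. Chance marks about 1 in 20 groups of normally distributed values, which low counts are not. Where all other mice had 0, any count above 0 meets the criterion, so that flag says nothing. The groups pool 2 stages each (0w with 2w, 8w with 11w). Several of these genes share cells, so the values do not count separately. Levels are TMM-scaled CPM of GN cells.

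In 2w replicate 1, with 8 GN cells, Csf3r stood at 454.8 CPM (next mouse 66.0), Retnlg at 13880 (next 1515) and Il1b at 2653 (next 235). A single cell gave 77.9%, 96.0% and 79.0% of those UMIs of that mouse. In 0w replicate 2, also with 8 GN cells, Rac2 stood at 5904 CPM (next 725) with 95.5% in 1 cell, and Prkcb at 13.17, Nfatc1 at 4.391 and Atg16l2 at 2.196 CPM, where the other 3 mice had 0. Nfatc1 rested there on 2 UMIs, and Prkcb and Atg16l2 on 1 cell each.

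Klhdc10 stood at 45.78 CPM in 2w replicate 2 (next 2.20), all of it in 1 cell, and Prkar1b at 14.82 CPM in 0w replicate 1 (next 1.38). In 8w replicate 1, with 5 GN cells, GN2 made up 40% of GN cells (next 10%) and Cxcr4 stood at 315.9 CPM (next 82.9). In 8w replicate 2, Dgat1 stood at 42.16 CPM (next 0.753), Smim3 at 32.79 (next 0.763), Sdhaf2 at 9.368 (next 0.753) and Msantd3 at 2.342 (next 0). Msantd3 rested there on 1 UMI. Each of these flagged values came from 1 to 6 cells with a UMI, and their causes were not tested.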

How the results depend on the processing

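The GN shares kept their side of the threshold under every alternative run. The nearest to 0.05 was 5w against 0w and 2w on the logit scale, with an exact permutation p of 0.0515. Leaving out 1 mouse moved their p-values between 0.305 and 0.710 across stages, 0.233 and 0.874 among immune cells, 0.0571 and 0.304 for 8w and 11w against 0w and 2w, and 0.0667 and 0.186 for 5w against 0w and 2w. With at least 10 GN cells per mouse the adjusted p of the GN0 and GN1 shares was 0.111, with at least 3 cells 0.764 and 0.115, and without plate F 0.132 and 0.240. Leaving out 1 mouse gave 0.00342 to 0.0325 for GN0, 0.0217 to 0.107 for GN1 and 0.0525 to 0.111 for GN2.

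The log2 ratio of genes per cell to macrophages was -0.44 with at least 5 cells per mouse and type (adjusted p = 0.0664, exact permutation), -0.39 without plate F, and -0.50 to -0.36 without 1 mouse. That to T cells turned to -0.047 with at least 5 cells, and ran from -0.047 to 0.12 without 1 mouse.

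Counts of called genes are given in the order 8w and 11w against 0w and 2w, 8w and 11w against 5w, and 5w against 0w and 2w. They were 5, 10 and 42 as reported, 7, 21 and 66 with RLE factors, 52, 26 and 189 with DESeq2, 0, 0 and 0 without the low-count filter (19568 genes, of which 1023, 1266 and 1432 had an unadjusted p under 0.05), 0, 0 and 1 with at least 3 cells per mouse, and 4, 59 and 28 with at least 10. Leaving out 1 mouse gave 0 to 8, 0 to 28 and 0 to 94, and the first was 9 without GN0 cells. Leaving out plate F, the 5w mice or GN0 cells was chosen after seeing the data. Among 379 values of named genes under alternatives, 161 kept their call, 216 lost it and 2 reversed: Rac2, at 2.48 with at least 10 cells per mouse, and Ipcef1, at 0 without 5w replicate 2, the mouse that held it. The cause was not tested.

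Replicate numbers did not pair the mice: correlations of 17 same-numbered pairs ran from -0.07 to 0.16, with 3 over 0.1. With the replicate block the counts were 4, 11 and 14, and the p of the GN share across stages was 0.567. Pooled subcluster levels without each mouse were also added after seeing the data. Of the 20 named genes, 8 had at least 50% of their UMIs in 1 cell, which limits their precision.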

Other observations

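Several groups not described above add to the profile of GN cells. Of 14 expressed transcription factors of myeloid cells, 5 were highest in GN cells and 2 at least 2 times higher, with a median log2 ratio of -0.91, beside -1.64 over all genes. Mxd1, an antagonist of Myc linked to terminal differentiation, stood at 614 CPM against 56.3 CPM in T cells, and Nfkbia, the inhibitor of NF-kappaB, at 2054 CPM against 1010 CPM in macrophages. Cebpe, which drives secondary granule genes in marrow precursors, was near 0, at 0.484 CPM. Among 10 growth factor and Fc receptors, Csf2rb stood at 48.6 CPM against 14.5 CPM in macrophages, while Fcer1g, the shared Fc receptor chain, stood at 1501 CPM against 2561 CPM.

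Interferon-related genes differed among themselves. Ifitm1 stood at 864 CPM against 62.8 CPM in fibroblasts, and Slfn4, a schlafen gene of myeloid cells, at 716 CPM against 19.0 CPM in macrophages. Isg15 stood at 19.8 CPM against 62.1 CPM and Cxcl10 at 35.3 CPM against 330 CPM, both lower than in macrophages. Alox5ap, which presents arachidonate to 5-lipoxygenase, stood at 853 CPM beside 818 CPM in macrophages, while Alox5 itself stood at 7.26 CPM. Mcl1, a survival factor on which neutrophils depend, stood at 637 CPM against 412 CPM in macrophages.

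The deposited annotation also marks each cell as API or PI, terms that the sources used here do not explain. GN cells were 110 of 2951 non-cardiomyocytes marked API (3.73%) and 71 of 2882 marked PI (2.46%). The API share was the higher in 9 of 16 mice and the lower in all 4 mice of 0w and 2w. No test was run on this difference.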
